A study of Asparagus officinalis with 12 samples.

Results

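In the stems of asparagus 'Fengdao 2', 73 of 35166 genes were either on or off in each of 12 RNA-seq libraries, with no library in between. FPKM gives sequenced fragments relative to the length of the gene and a scale factor of the library. A gene was taken as off in a library at an FPKM of at most 0.1 and as on at an FPKM of at least 2. It had to be off in at least 1 library and to reach 5 FPKM or more in another. For 24 of the 73 genes the on and off libraries followed the 4 stages, so that the 3 libraries of a stage always had the same state. The other 49 genes split at least 1 stage, with its libraries in different states. The genes were selected on their measured FPKM in all 12 libraries, so the values given here describe them and were not tested.

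The libraries come from stem segments of plants of a single cultivar, cut at heights of 10 cm (H-10), 25 cm (H-25), 40 cm (H-40) and 60 cm (H-60), with 3 libraries per stage and no treatment or genotype that differed between stages. The H-10 segment lay 3 to 6 cm above the surface and those of the other 3 stages 17 to 20 cm above it, so the stage and the position on the stem cannot be told apart in H-10 vs. H-25. Neither the labels nor the methods say how many stems entered a library or tie a replicate number to a shared plant. The columns of the deposited table carry a stage number and a replicate number but no height, and the stage numbers were read in rising order of height.

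A plant stem that stops elongating changes its set of active genes as its cells leave division, lengthen and then thicken their walls, and regulators of wall thickening are typically silent in young tissue. Long noncoding RNAs (lncRNAs), which are transcribed but not translated, are generally expressed at lower levels and in fewer tissues than protein-coding genes. In bulk RNA from a stem segment, fewer cells that express a gene and less RNA per cell cannot be told apart.

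The 12 libraries held 13468440 to 16980659 fragments each, and 1 fragment on a gene of 1 kb was worth 0.0522 to 0.0795 FPKM. Summed FPKM of 7 secondary wall cellulose synthase genes, the markers of thickening fibres and xylem, lay between 113 and 390.1 in the H-10 and H-25 libraries and between 1119.7 and 2173 in those of H-40 and H-60. Summed FPKM of 10 genes of dividing cells (9 above 0) lay between 476 and 1701 in the H-10 and H-25 libraries and between 25.1 and 169 in the others. All 17 chlorophyll a-b binding protein genes but 1 were above 0, with sums of 3716 to 12065, and the 26 genes that the words pollen, tapetum or anther found in the description or protein match (25 above 0) summed to 559 to 2172. The squared correlation of log2(FPKM + 1) within a stage was 0.921 to 0.984.

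The 73 genes were few among those that are silent somewhere. Of 16243 genes with a highest FPKM of at least 5, 1093 were at or below 0.1 in at least 1 library, and in 73 of these (6.68%) no library lay between the limits. A further 113 genes had exactly 1 library between the limits. Off mostly meant no fragment at all, since 327 of the 356 off values were at 0 fragments and the highest off value was 3 fragments. On values had a median of 108 fragments, and 69 of the 73 genes held at least 10 fragments in every on library. The 4 others were 3 tRNA genes and the lncRNA LOC109848116. An observed 0 still allows up to 3 fragments, which as FPKM had a median of 0.269 over the 73 genes and exceeded 0.5 in 16 of them. For the 3 tRNA genes it exceeded 2 FPKM. The lowest on value of the tRNA-Phe gene, 2.89 FPKM, lay below its floor of 3.17, so that its states were not all distinguishable at this depth, and those of the pair of tRNA-Glu genes, 5.69 and 4.07, lay above their floors of 2.89 and 3.22. These floors cover counting error only.

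The on levels were moderate. The highest FPKM of a gene had a median of 13.3 and ran from 5.13 to 469, with 24 genes under 10 and 5 genes at 50 or more. Among the on libraries of a gene the highest value was 1.13 to 48.1 times the lowest, with a median of 3.67. The heat map of all 73 genes shows the on and off states beside each other.

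**Figure D1:**
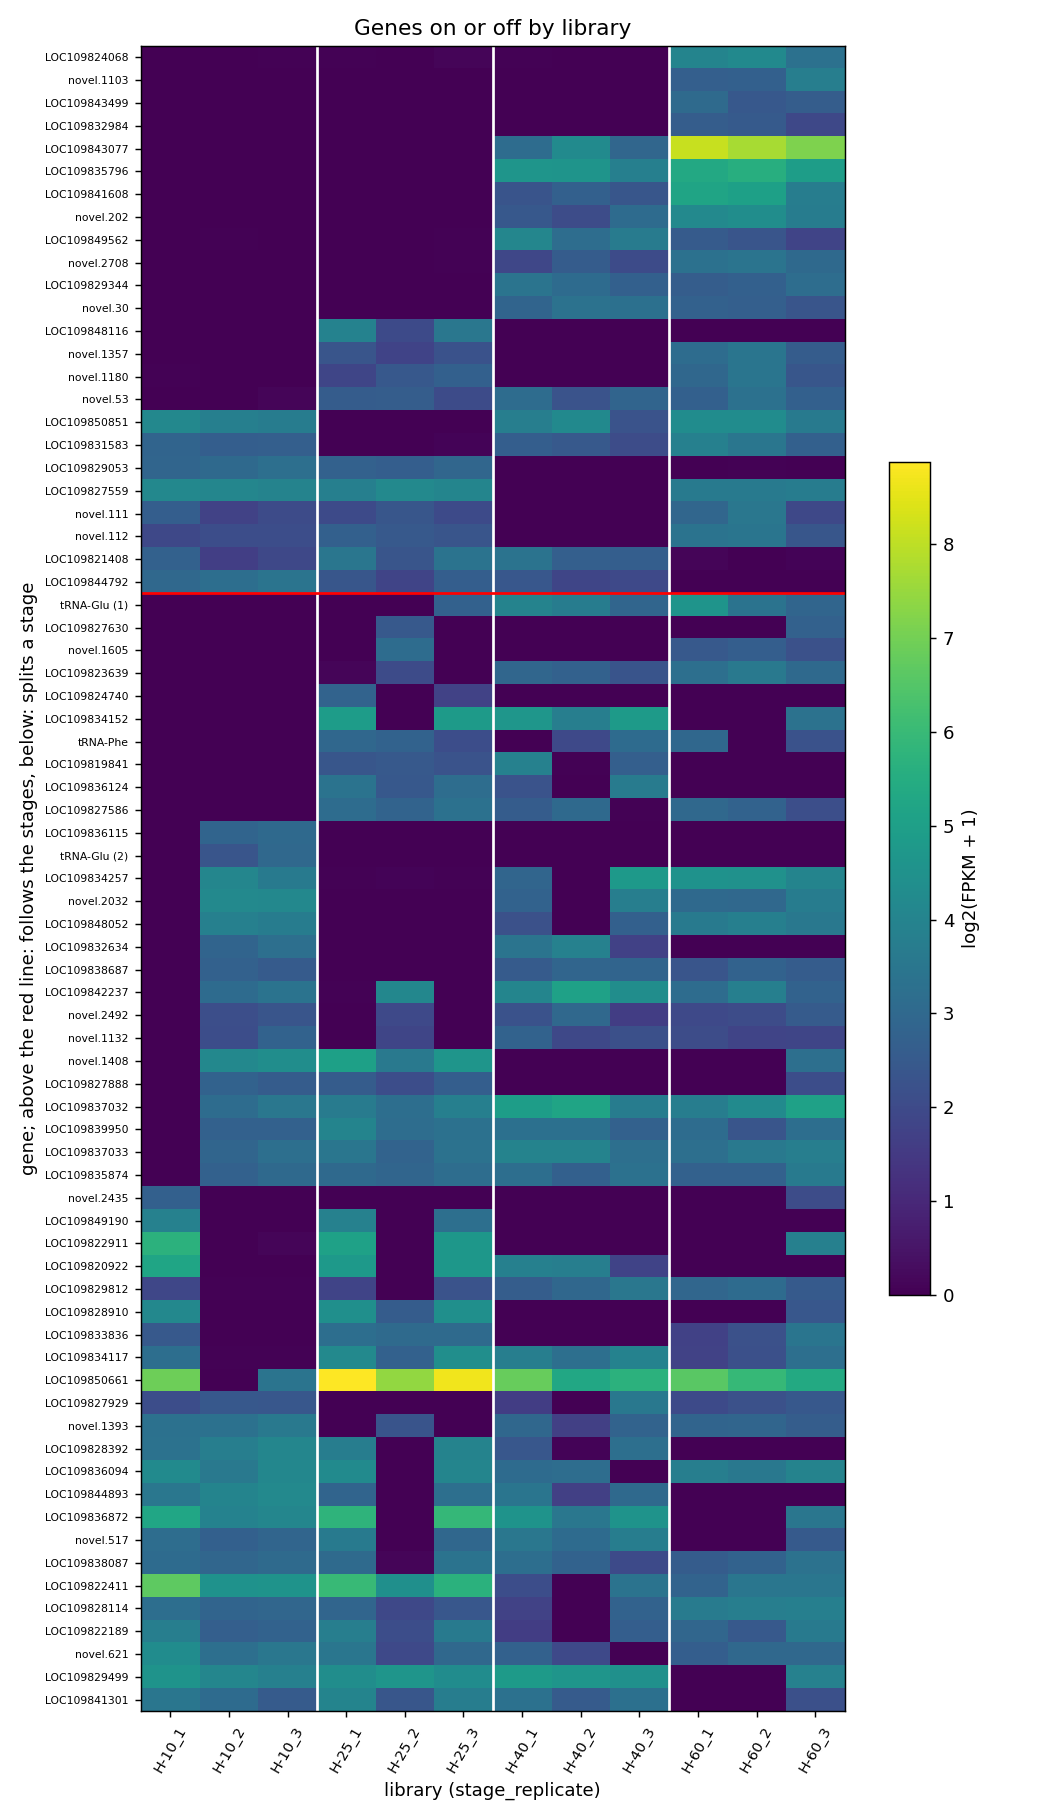
Heat map of the 73 on/off genes (rows, grouped into the 24 that follow the stages and the 49 that split a stage) in the 12 libraries (columns), coloured by log2(FPKM + 1). A red line parts the groups: above it rows switch between near black (off) and lighter colours (on) only between stages, whereas below it they switch within a stage, most often at H-10 replicate 1 and H-25 replicate 2.

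The 24 genes that followed the stages fell into 9 sets, and the largest held 8 genes that were off at H-10 and H-25 and on at H-40 and H-60. In this set was LOC109835796 (chromosome 3 from 113043607 to 113045374, minus strand), a MYB26-like transcription factor gene. In Arabidopsis, MYB26 switches on secondary wall thickening in the anther. LOC109835796 was at 0 FPKM in all 6 libraries of H-10 and H-25, at 23.7, 23.0 and 13.4 at H-40 and at 40.3, 45.8 and 29.6 at H-60. No early library held a fragment of it, and its lowest later value was at least 81.4-fold higher than the 0.164 FPKM that 3 fragments would give. It was also the single member described as a transcription factor, a list that holds 630 of the 16243 genes with a highest FPKM of at least 5.

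LOC109843077 (chromosome 5 from 95087395 to 95091269, minus strand) encodes a DNA-3-methyladenine glycosylase-like protein, an enzyme type that cuts alkylated bases out of DNA. It was at 0 FPKM in all 6 early libraries, at 7.86, 17.9 and 6.71 at H-40 and at 282, 208 and 142 at H-60. It was therefore absent at first, low at H-40 and then among the most abundant of the 73 genes, with a mean of 10.8 ± 6.17 (SD, n = 3) at H-40 and 211 ± 69.9 at H-60. The H-40 and H-60 libraries did not overlap. The adjacent gene LOC109842202, 1751 bases away, has the same description and reached at most 0.464 FPKM. Whether fragments of the pair were told apart was not tested.

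Other genes of this set had no known role. LOC109841608, an uncharacterized protein-coding gene on chromosome 5, was at 3.94, 5.61 and 4.23 FPKM at H-40 and at 35.4, 32.4 and 12.5 at H-60, and at 0 before. LOC109849562, uncharacterized on chromosome 7, ran the other way within the on state, at 15.7, 8.10 and 11.9 FPKM at H-40 and 4.82, 4.03 and 2.53 at H-60. LOC109829344, uncharacterized on chromosome 2, held similar values of 9.57, 7.5 and 5.65 at H-40 and 5.17, 5.58 and 8.08 at H-60. The remaining 3 genes of the set carry no RefSeq ID and reached 9.27 to 19.2 FPKM.

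A further 4 genes were on at H-60 only. LOC109824068 (chromosome 9 from 61942347 to 61956130), an uncharacterized protein whose domain annotation names the OB fold of replication protein A, was at 15.0, 17.4 and 8.90 FPKM at H-60 and at most 0.0765 in the 9 earlier libraries. LOC109832984 (chromosome 3), whose description is a non-specific lipid-transfer protein-like protein, was at 5.13, 4.67 and 2.79 FPKM at H-60 and at 0 before. Lipid-transfer proteins carry lipids, among them building blocks of the cuticle. The adjacent gene LOC109832985, 3382 bases away, has the same description. It was at 4.21, 5.48 and 2.34 FPKM at H-60 and at most 0.678 before. Whether fragments of these neighbours were told apart was not tested. The lncRNA LOC109843499 was at 7.34, 4.40 and 5.19 FPKM at H-60 and at 0 before, and a gene without a RefSeq ID on chromosome 4 was at 5.41, 5.64 and 12.8.

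In the opposite direction, LOC109829053 (chromosome 1 from 113666867 to 113676233, plus strand) was the single gene on at H-10 and H-25 and off afterwards. Its closest protein match is Arabidopsis MODIFIED TRANSPORT TO THE VACUOLE 1, which acts in the sorting of proteins to the vacuole. It held 6.46, 7.13 and 8.41 FPKM at H-10 and 5.69, 5.35 and 6.68 at H-25. At H-40 it was at 0 in the 3 libraries, and at H-60 at 0, 0.033 and 0. Its gene model of 4674 bases is long for the group, so its off state rests on a low floor of 0.051 FPKM.

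Several genes were off at just 1 stage between or beside stages where they were on. LOC109827559, a gene for a mitochondrial 60S ribosomal protein L2-like protein on an unplaced scaffold, was at 16.5, 15.8 and 14.6 FPKM at H-10, at 13.3, 17.0 and 15.4 at H-25 and at 11.5, 11.5 and 12.3 at H-60. At H-40 it was at 0 in the 3 libraries. The 9 on values lay close together, and the lowest was at least 83.3-fold higher than the 0.137 FPKM that 3 fragments would give. A pair of neighbouring genes without RefSeq IDs on chromosome 1 had the same states, off at H-40 alone.

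The 2 genes off at H-25 alone were the lncRNA LOC109850851 and the pseudogene LOC109831583, which matches UDP-glucose 4-epimerase, the enzyme that interconverts UDP-glucose and UDP-galactose. LOC109850851 was at 16.8, 13.4 and 12.2 FPKM at H-10, at 0 in the H-25 libraries, at 12.9, 17.5 and 3.87 at H-40 and at 18.7, 19.2 and 11.6 at H-60. The genes off at H-60 alone were LOC109844792 and LOC109821408, a pseudogene that matches a phosphoenolpyruvate phosphatase of onion. LOC109844792 is described as like the 70 kDa DNA-binding subunit B of replication protein A, a complex that coats single-stranded DNA during replication and repair. It was at 6.91, 8.26 and 9.55 FPKM at H-10, at 4.24, 2.55 and 5.34 at H-25, at 4.26, 2.60 and 2.87 at H-40 and at 0 in the H-60 libraries. Its gene overlaps another one, LOC109846091.

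The last sets were small. A gene without a RefSeq ID was off at H-10 alone, and 2 adjacent ones were on at H-25 and H-60 alone. The lncRNA LOC109848116 was on at H-25 alone, at 14.2, 3.03 and 10.5 FPKM, of which the lowest was 9 fragments.

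**Figure D2:**
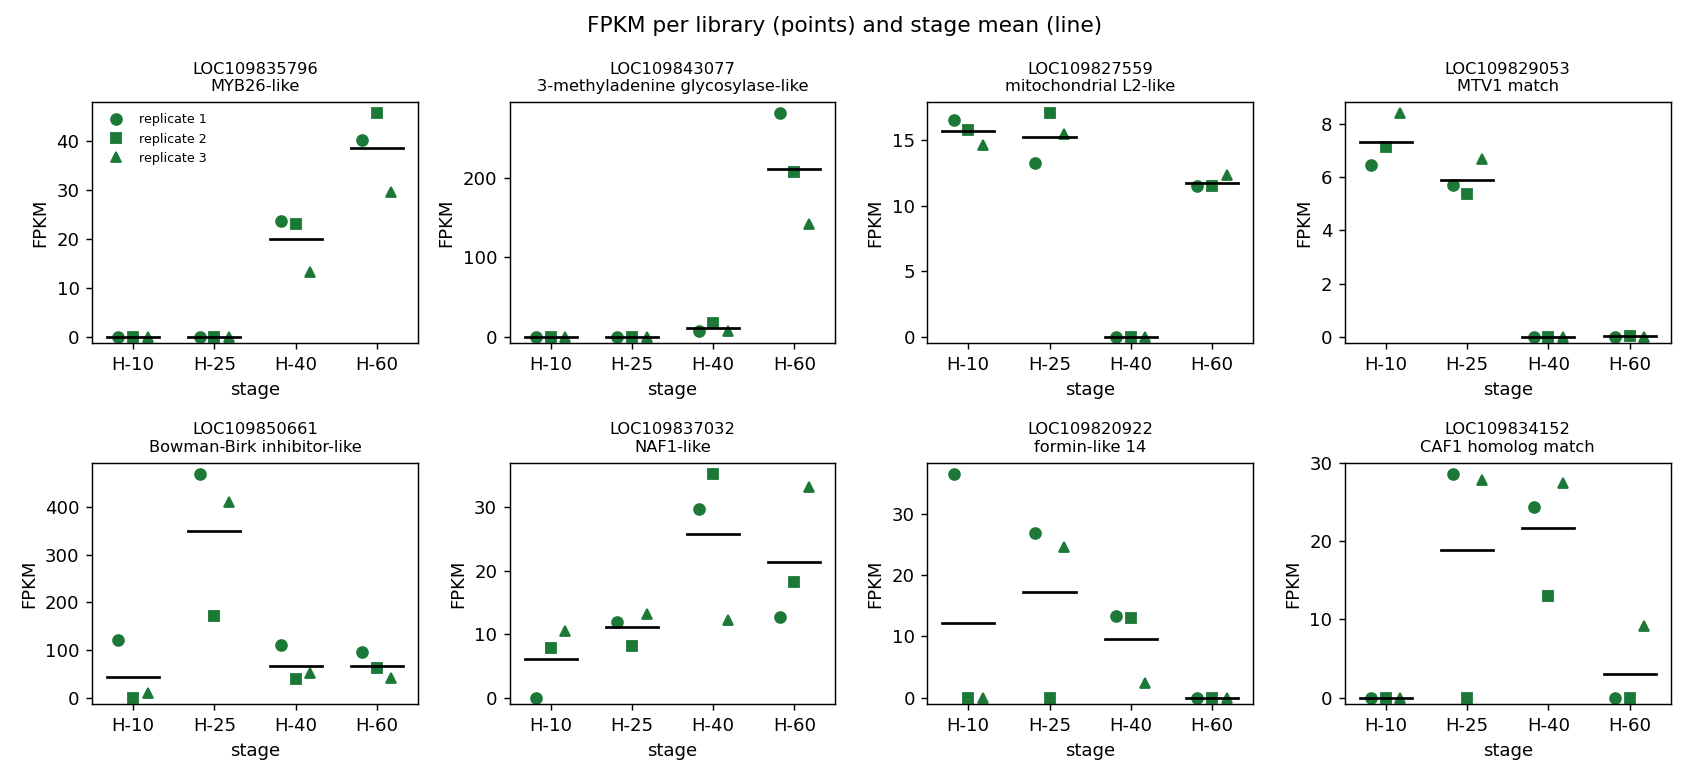
FPKM of 8 on/off genes in each library (circles, squares and triangles for replicates 1, 2 and 3) by stage, with the stage mean as a line. LOC109835796, LOC109843077, LOC109827559 and LOC109829053 switch between stages, whereas LOC109850661, LOC109837032, LOC109820922 and LOC109834152 have libraries at 0 beside libraries well above 0 within a stage, such as 0 beside 27.0 and 24.7 for LOC109820922 at H-25.

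Among the 49 genes that split a stage, 28 split 1 stage, 20 split 2 and 1 split 3. H-10 was split in 25 genes, H-25 in 20, H-40 in 14 and H-60 in 12. In a split stage, 1 library stands alone against the other 2, and this was mostly the same library. H-10 replicate 1 stood alone in 24 of the 25 genes split at H-10, in 8 as the on library and in 16 as the off library. H-25 replicate 2 stood alone in 19 of 20, on in 7 and off in 12. H-60 replicate 3 stood alone in 11 of 12, each time as the on library, and H-40 replicate 2 in 10 of 14, each time as the off library.

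These libraries were read against all tested genes. Over 20139 to 20237 genes per stage, H-10 replicate 1 was the library farthest from the other 2 of its stage in 49.3% of genes, H-25 replicate 2 in 62.4%, H-40 replicate 2 in 33.9% and H-60 replicate 3 in 37.3%. H-10 replicate 1 and H-25 replicate 2 thus stood apart from their stages over the whole table. The other libraries of H-40 and H-60 were farthest in 26.8% to 36% of genes. By this measure H-40 replicate 2 and H-60 replicate 3 did not stand out, but they did in how many genes were off. Of the 16243 genes with a highest FPKM of at least 5, 285 were at or below 0.1 in H-40 replicate 2. The other H-40 libraries had 133 and 172 such genes. H-60 replicate 3 had 189, against 253 and 325 in replicates 1 and 2. H-10 replicate 1 had 277 against 283 and 252, and H-25 replicate 2 had 295 against 332 and 322. Genes of dividing cells were lower in H-10 replicate 1 and H-25 replicate 2 than in the other libraries of their stages, but also in H-40 replicate 2. Cellulose synthases were higher in H-25 replicate 2 and closer to the others in H-10 replicate 1. The part of the markers in the result was not tested. The summed FPKM of genes of dividing cells was 476 in H-10 replicate 1 against 928 and 1175 in replicates 2 and 3, and 616 in H-25 replicate 2 against 1701 and 1479 in replicates 1 and 3. The summed cellulose synthases were 390.1 in H-25 replicate 2 against 113 and 142, and 313 in H-10 replicate 1 against 301 and 263. For H-60 replicate 3 they were 1366 against 2173 and 2082, with 55.1 against 46.8 and 25.1 for genes of dividing cells. For H-40 replicate 2, genes of dividing cells were at 45.7 against 123 and 169. Without H-10 replicate 1 and H-25 replicate 2, the same rule gave 85 genes, of which 58 followed the stages and 27 split one. These libraries were left out because they stood alone so often, and a stage left with 2 libraries has fewer ways to split. Nothing is read from this change.

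**Figure D3:**
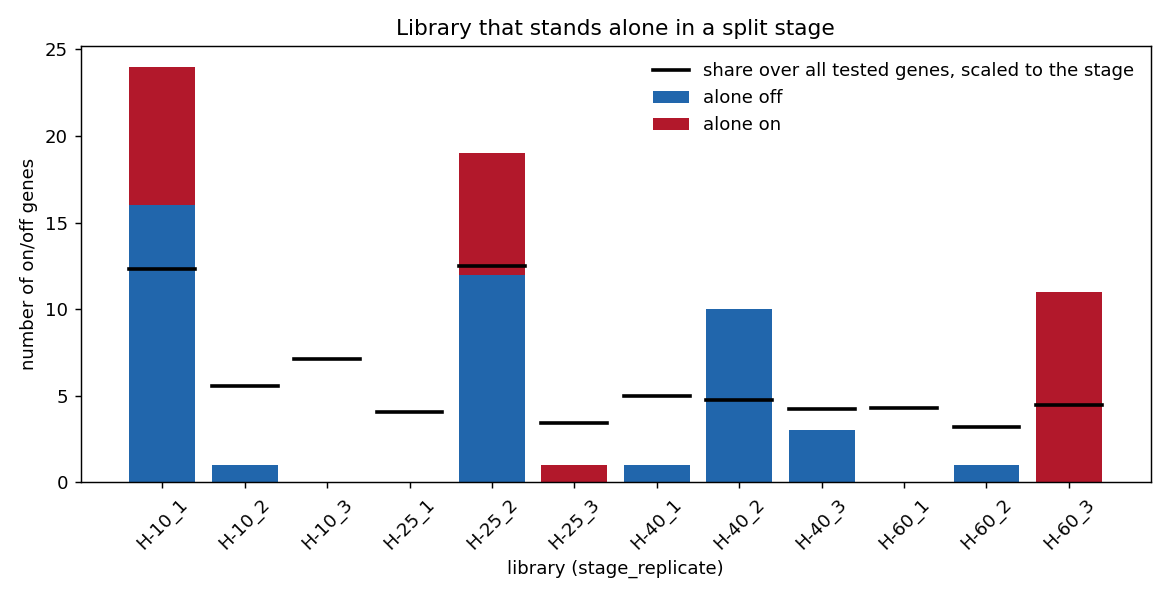
Number of stage-splitting genes in which each library (horizontal axis, stage and replicate) stood alone in its stage, divided into genes for which it was the on library and genes for which it was the off library. H-10 replicate 1 with 24 genes and H-25 replicate 2 with 19 stand out, with both states among their genes, whereas the 11 genes of H-60 replicate 3 were on and the 10 of H-40 replicate 2 were off.

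Where a gene split both H-10 and H-25, the libraries that stood alone were opposite. In all 7 such genes they were H-10 replicate 1 and H-25 replicate 2, with the first off and the second on in 3 genes and the reverse in 4. H-10 replicate 1 therefore had the state of H-25 replicates 1 and 3, and H-25 replicate 2 that of H-10 replicates 2 and 3. Whether these libraries carry each other's labels or come from other plants was not tested, and the division into 24 and 49 genes takes the labels as given. Over all genes, the squared correlation of H-10 replicate 1 was 0.943 and 0.937 with the other H-10 libraries and 0.906 and 0.899 with H-25 replicates 1 and 3. That of H-25 replicate 2 was 0.921 and 0.923 with the other H-25 libraries and 0.931 and 0.933 with H-10 replicates 2 and 3. So over all genes H-10 replicate 1 was nearer to its own stage. H-25 replicate 2 was slightly nearer to H-10 replicates 2 and 3 than to its own stage, but not to H-10 replicate 1 (0.919). With H-25 replicates 1 and 3, H-10 replicate 3 was also at 0.931 and 0.930, and H-10 replicate 2 at 0.913 and 0.907. In the 3 genes that split H-10 and H-40, H-10 replicate 1 and H-40 replicate 2 were off. Over the 49 genes, H-10 replicate 1 shared its state with H-25 replicate 1 in 34 and with H-25 replicate 3 in 33, but with H-10 replicates 2 and 3 in just 24 and 25. Other pairs of the same stage were nearly identical, since H-10 replicates 2 and 3, H-25 replicates 1 and 3 and H-60 replicates 1 and 2 each shared the state of 48 of the 49 genes. Pairs within a stage shared 24 to 48 states (median 37.5, 12 pairs) and pairs between stages 20 to 36 (median 29.0, 54 pairs). These counts come from genes chosen for splitting a stage and are a description.

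**Figure D4:**
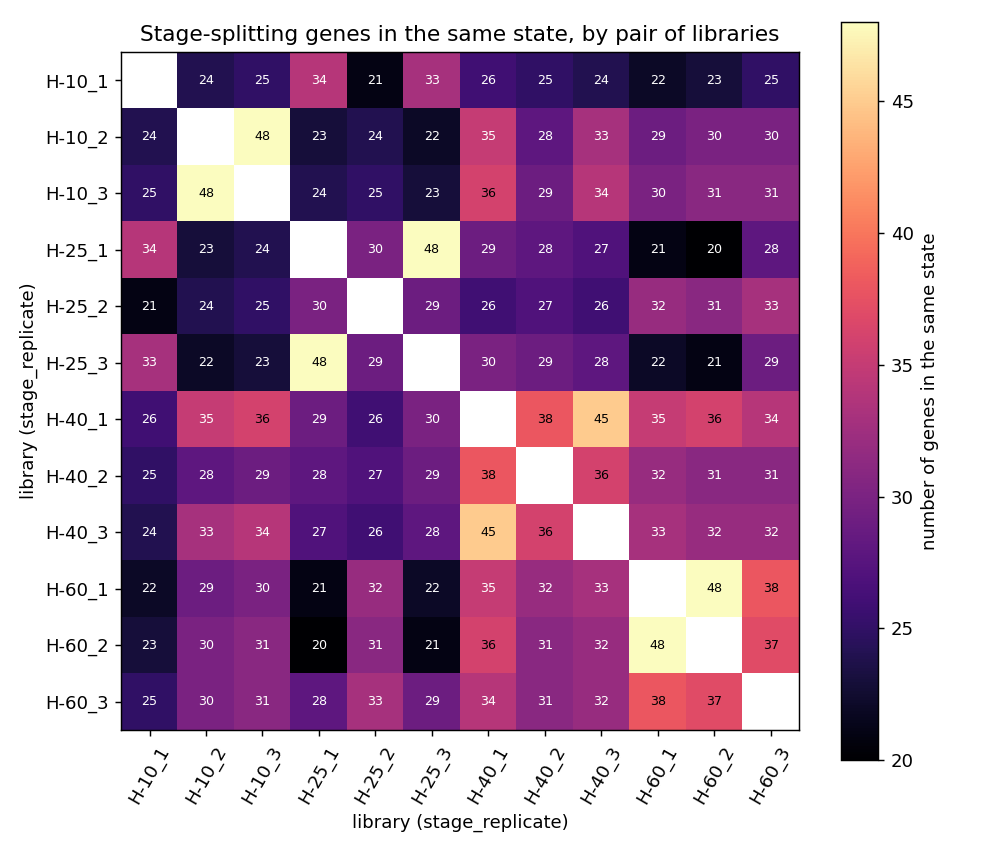
Number of the 49 stage-splitting genes in the same state for each pair of libraries (both axes: stage and replicate). The pairs of H-10 replicates 2 and 3, H-25 replicates 1 and 3 and H-60 replicates 1 and 2 share 48 states, while H-10 replicate 1 shares 34 with H-25 replicate 1 and 24 with H-10 replicate 2.

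The gene with the highest FPKM of the whole group split H-10. LOC109850661 (chromosome 7 from 2773614 to 2774440, minus strand) encodes a Bowman-Birk type proteinase inhibitor D-II-like protein, of a family of small plant proteins that block trypsin and chymotrypsin. It was at 119.9, 0 and 9.76 FPKM at H-10, at 469, 171 and 409.7 at H-25, at 111, 38.9 and 51.6 at H-40 and at 95.3, 61.0 and 41.3 at H-60. Its single off library was H-10 replicate 2, the only time that this library stood alone in H-10. The adjacent gene LOC109850080 has the same description and was at 516 to 2625 FPKM, with 2034 in H-10 replicate 2. Whether fragments of these genes were told apart was not tested.

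In 4 genes H-10 replicate 1 was the single off library of all 12. LOC109837032, a gene for an NAF1-like subunit that helps to assemble H/ACA ribonucleoproteins, and LOC109837033, a gene for a probable sugar phosphate/phosphate translocator, lie on chromosome 4 with 749 bases between them. LOC109837032 (26776197 to 26777473, plus strand) was at 0, 7.75 and 10.4 FPKM at H-10, at 11.9, 8.18 and 13.2 at H-25, at 29.6, 35.2 and 12.3 at H-40 and at 12.6, 18.2 and 33.2 at H-60. LOC109837033 (26778222 to 26780401, minus strand) was at 0, 6.50 and 8.45 at H-10, at 10.2, 6.06 and 9.22 at H-25, at 14.6, 14.7 and 8.45 at H-40 and at 8.47, 11.2 and 12.8 at H-60. Both were at 0 fragments in 1 library and within a few fold in the other 11. The others were LOC109839950, whose match is the thylakoid protein SUPPRESSOR OF QUENCHING 1, and the lncRNA LOC109835874, each at 0 in H-10 replicate 1 and at 4.02 to 15.1 FPKM elsewhere.

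LOC109820922 and LOC109834152 switched in several stages. LOC109820922 (chromosome 8 from 16061113 to 16070668, plus strand) is described as formin-like protein 14, and formins nucleate actin filaments. It carries no protein match or domain annotation. It was at 36.6, 0 and 0 FPKM at H-10, at 27.0, 0 and 24.7 at H-25, at 13.4, 13.0 and 2.42 at H-40 and at 0 in the H-60 libraries. LOC109834152 (chromosome 3 from 53898166 to 53906013, plus strand) matches a CCR4-associated factor 1 homolog, a deadenylase that shortens the poly(A) tails of mRNAs. It was at 0 in the H-10 libraries, at 28.7, 0 and 27.9 FPKM at H-25, at 24.4, 13.0 and 27.5 at H-40 and at 0, 0 and 9.14 at H-60. In both genes H-25 replicate 2 was off beside values above 24 in replicates 1 and 3.

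LOC109834117 and LOC109829812 were off in H-10 replicates 2 and 3. LOC109834117 (chromosome 3) is described as the shaggy-related protein kinase GSK4-like, and kinases of this family act in brassinosteroid signalling in rice. It was at 8.15, 0.0411 and 0.0447 FPKM at H-10, at 17.1, 5.69 and 19.7 at H-25, at 12.8, 8.40 and 14.5 at H-40 and at 2.34, 3.47 and 8.51 at H-60. LOC109829812 (chromosome 2), a 7-deoxyloganetic acid glucosyltransferase-like gene, was at 2.73, 0.0362 and 0.0394 FPKM in the H-10 libraries and at 2.52, 0 and 3.83 at H-25. At H-40 and H-60 it was on in the 6 libraries, at 4.67 to 10.5 FPKM.

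Enzymes of primary metabolism were among the splitting genes. LOC109827586, an aconitate hydratase-like gene on an unplaced scaffold, belongs to a family that turns citrate into isocitrate. It was at 0 in the H-10 libraries, at 7.82, 6.11 and 8.94 FPKM at H-25, at 5.05, 7.24 and 0.0473 at H-40 and at 6.93, 5.87 and 3.37 at H-60. LOC109827888, on another unplaced scaffold, encodes a hydroxymethylglutaryl-CoA lyase-like enzyme, which ends leucine breakdown. It was at 0, 5.95 and 5.01 FPKM at H-10, at 4.98, 3.25 and 5.36 at H-25, at 0 in the H-40 libraries and at 0, 0 and 3.25 at H-60.

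LOC109819841, LOC109828392 and LOC109844893 were off at H-60 throughout. LOC109819841 (chromosome 8) is a polyamine oxidase-like gene, and such enzymes break down polyamines with release of hydrogen peroxide. It was at 0 in the H-10 libraries, at 4.16, 4.52 and 3.85 FPKM at H-25, at 13.8, 0.0433 and 5.43 at H-40 and at 0 at H-60. LOC109828392, a probable aldo-keto reductase 2 gene, was at 9.19, 12.8 and 15.8 FPKM at H-10, at 12.6, 0 and 14.9 at H-25 and at 4.31, 0.0692 and 8.45 at H-40. Both were off in H-40 replicate 2, and the aldo-keto reductase gene also in H-25 replicate 2. LOC109844893, an F-box/kelch-repeat gene of the kind that picks targets for ubiquitination, was at 10.3, 15.1 and 17.0 FPKM at H-10, at 6.23, 0 and 8.44 at H-25 and at 9.93, 2.24 and 7.29 at H-40.

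At H-60, replicate 3 was often on alone. LOC109841301 (chromosome 5), a phosphatidylinositol transfer protein SFH8-like gene, was on in the 9 earlier libraries at 4.20 to 14.9 FPKM and at 0, 0 and 3.54 at H-60. The lncRNA LOC109829499 (chromosome 2), with a match to the chromatin remodelling subunit SWI3D, had the same states, at 13.5 to 27.4 FPKM before H-60 and at 0, 0 and 13.8 there. The lncRNA LOC109836872 (chromosome 1), with a match to ribosomal protein L23, was at 37.5, 14.3 and 15.9 FPKM at H-10, at 53.7, 0 and 59.7 at H-25, at 22.7, 10.6 and 22.7 at H-40 and at 0, 0 and 10.2 at H-60. The lncRNA LOC109822911 (chromosome 8) was at 51.7, 0 and 0.0924 FPKM at H-10, at 32.7, 0 and 25.0 at H-25, at 0 in the H-40 libraries and at 0, 0 and 13.6 at H-60. In each of these genes the lone on value of H-60 was lower than or within the range of the on values at the earlier stages.

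Most sets of on libraries were held by 1 gene. The 49 genes had 35 different sets, and 9 sets shared by at least 2 genes held 23 of them. LOC109842237, uncharacterized on chromosome 5, and 2 genes without a RefSeq ID on chromosomes 4 and 9 were off in H-10 replicate 1 and in H-25 replicates 1 and 3. LOC109842237 was at 0, 7.58 and 9.34 FPKM at H-10, at 0.0351, 16.1 and 0 at H-25, at 15.4, 32.9 and 19.6 at H-40 and at 7.71, 13.1 and 5.90 at H-60. The other 2 match ribonuclease H1, which cuts RNA in RNA-DNA hybrids. The pseudogene LOC109834257, the lncRNA LOC109848052 and a gene without a RefSeq ID on chromosome 7 were off in H-10 replicate 1, the 3 H-25 libraries and H-40 replicate 2. LOC109834257 was at 0, 16.1 and 11.7 FPKM at H-10, at most 0.0493 at H-25, at 6.37, 0 and 26.5 at H-40 and at 22.3, 21.6 and 15.2 at H-60. These genes lie on different chromosomes or far apart on chromosome 7.

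The lncRNAs LOC109822411, LOC109828114 and LOC109822189 were off in H-40 replicate 2 alone. LOC109822411 (chromosome 8) was at 102, 22.2 and 22.4 FPKM at H-10, at 62.7, 20.4 and 50.3 at H-25, at 3.32, 0 and 9.31 at H-40 and at 6.03, 10.3 and 10.2 at H-60. LOC109828114 matches the splicing protein SMU1 and was at 2.37, 0 and 5.85 FPKM at H-40. In the 3 genes, the 2 on libraries of H-40 held 2.03 to 9.31 FPKM.

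The group was rich in genes of little annotation. Only 28 of the 73 genes (38.4%) were protein-coding, against 86.0% of the 16243 genes with a highest FPKM of at least 5. LncRNAs made up 21 genes (28.8% against 6.43%) and genes without a RefSeq ID 18 (24.7% against 4.59%). Of the 21 lncRNAs, 18 split a stage and 3 followed the stages, whereas genes without a RefSeq ID were 9 and 9. Pseudogenes made up 3 (4.11% against 2.92%) and tRNA genes 3 (4.11% against 0.0554%). The gene models were short, with a median of 849 bases (958 among genes that follow the stages and 734 among those that split one) against 1470. A short gene at a given FPKM holds fewer fragments, so that its 0 is less certain. For 53 of the 73 genes the description named no function or there was none. Most of the 16243 genes were above 0.1 FPKM in every library. Classes and lengths were not computed for the 1093 with a library at or below 0.1, so these traits may not be particular to the 73 genes.

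**Figure D5:**
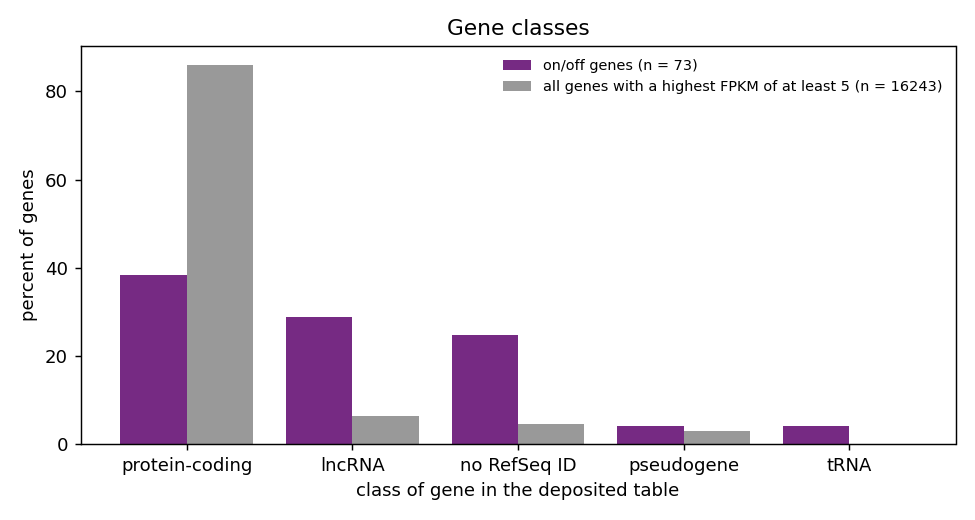
Share of each gene class in percent among the 73 on/off genes and among all 16243 genes with a highest FPKM of at least 5. LncRNAs were 28.8% against 6.43% and protein-coding genes 38.4% against 86.0%.

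Each of the lists of known gene groups, matched by words in the description or the closest protein match, held at most 2 of the 73 genes. Ribosomal proteins gave 2 (LOC109827559 and the lncRNA LOC109836872), which is 2.74% against 2.13% in the background. The words for F-box proteins, glycosyltransferases, transcription factors, heat shock proteins, proteases and transporters gave 1 gene each (1.37%), against 0.874%, 0.80%, 3.88%, 0.339%, 1.76% and 2.11% of the background. With so few genes, nothing is read from these shares. The gene found by the protease words was LOC109850661, which is described as an inhibitor of proteinases. For heat shock it was the lncRNA LOC109849190, which matches the chaperone BIP1 and was at 14, 0 and 0 FPKM at H-10, at 14, 0 and 8.43 at H-25 and at 0 afterwards. None of the 73 genes belonged to the lists of disease resistance (21 in the background), receptor kinases (224), transposons or retroelements (30), cytochromes P450 (77), dioxygenases (42), pollen, tapetum or anther (14) or peroxidases and laccases (43), which each make up at most 1.38% of the background. None was a marker of secondary walls, green tissue or dividing cells.

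Replication protein A and ribonuclease H1 were chosen after the values were seen. Of the 16243 genes with a highest FPKM of at least 5, 17 (0.105%) match replication protein A. Among the 73 were 3 of these (4.11%), namely LOC109824068, LOC109844792 and LOC109838687. LOC109838687 (chromosome 4 from 50747081 to 50767454, minus strand) was at 0, 5.78 and 4.80 FPKM at H-10, at 0 in the H-25 libraries, at 4.88, 6.47 and 6.24 at H-40 and at 4.12, 5.97 and 5.06 at H-60. The 3 genes had 3 different sets of on libraries. Of the same 16243 genes, 11 (0.0677%) match ribonuclease H1, and 3 were among the 73 (4.11%). Nothing is read from these shares, as both groups were picked from the values. One of these was the lncRNA LOC109836094, off in H-25 replicate 2 and H-40 replicate 3 and at 7.55 to 18.1 FPKM elsewhere.

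The 73 genes lay on all 10 chromosomes and on unplaced scaffolds. Chromosome 4 held 11 (15.1% against 10.9% of the background, 10 that split a stage), chromosome 3 held 10 (13.7% against 11%, 8 that split) and chromosome 1 held 9 (12.3% against 12.4%, 7 that follow the stages). Unplaced scaffolds held 7 (9.59% against 3.50% of the background). Pairs of genes next to each other with identical on libraries were LOC109837032 with LOC109837033, the pair without RefSeq IDs on chromosome 1 (5075 bases apart) and another such pair on chromosome 5 (155 bases apart). Their log2(FPKM + 1) values had Pearson correlations of 0.975, 0.956 and 0.978 over the 12 libraries. LOC109829812 and LOC109829344 on chromosome 2 lay 42213 bases apart with other genes between them and differed in 3 libraries.

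Some neighbours outside the group followed it. Among genes that split a stage, 9 of 60 pairs with an adjacent expressed gene (15.0%) had a correlation of at least 0.8, against 6 of 27 (22.2%) for genes that follow the stages and 7.86% of all 12589 neighbouring pairs. The pairs share the same 12 libraries, so these correlations, also of log2(FPKM + 1), are a description. The median correlation was 0.248, -0.0148 and 0.10 in that order. Genes that overlap a member were counted as neighbours. Among them were LOC109831584 with LOC109831583 (0.826) and LOC109834831 with a tRNA-Glu gene (0.910), whose fragments may be shared. LOC109824070, a CSC1-like gene of a family of osmosensitive calcium channels, lies 2442 bases from LOC109824068 and was at 0.0344 to 0.524 FPKM until H-40 and at 13.7, 16.6 and 10.3 at H-60. LOC109849561, a laccase-4-like gene of a family that polymerizes lignin, lies 86 bases from LOC109849562 on the same strand and was at 0.415 to 4.61 FPKM in the 6 early libraries and at 258 to 622 later. LOC109840339 lies 2192 bases from LOC109842237 and was at 0.387, 16.6 and 20.8 FPKM at H-10, at 0.465, 12.1 and 0.248 at H-25 and at 7.65 to 23.6 later. It had lower values in the very libraries where LOC109842237 was off, but was above 0.1 in each of them.

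Of the 73 genes, 11 overlap another gene, 9 on the same strand and 2 on the other. The libraries were strand-specific, but neither the labels nor the methods say whether the counting used the strand, so that fragments of these genes may be shared with the overlapping ones. Among those named here were LOC109824068, LOC109844792, LOC109831583, LOC109839950 and the 3 tRNA genes.

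The limits of the rule cut through a continuum. The highest FPKM just inside the minimum of 5 were 5.13 (LOC109832984) and 5.58 (a gene without a RefSeq ID), and just outside 4.36 and 4.30, the latter in the RADIALIS-like LOC109843257. The lowest on values just inside were 2.03 in LOC109827929 and in LOC109822189, and just outside 1.97 in LOC109840762 and in LOC109820606. The highest off values just inside were 0.0971 in LOC109823639 and 0.0924 in LOC109822911, and just outside 0.101 in LOC109841803, a TPX2-like gene, and 0.105 in LOC109836182, an S-norcoclaurine synthase-like gene.

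The 113 genes with exactly 1 library between the limits were not selected by the rule, though they met its other limits and come from the same 12 libraries. Taking a library as on from 1 FPKM, H-10 was split in 32 of them, and H-10 replicate 1 stood alone in 31, on in 16 and off in 15. H-25 was split in 16, with H-25 replicate 2 alone in each, on in 8 and off in 8. H-40 replicate 2 was alone and off in the 7 genes that split H-40, and H-60 replicate 3 was alone and on in 9 of the 12 that split H-60. The same 4 libraries led in both groups of genes. Since the groups share these libraries, this is a description and no independent check. Of the 4 such genes that split both H-10 and H-25, H-10 replicate 1 and H-25 replicate 2 were opposite in 3 (2 and 1 in the 2 directions) and both off in 1.

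DEGs between neighbouring stages were called by limma on log2(FPKM + 1) where the adjusted p was at most 0.05 and the log2 fold change at least 1 in either direction, over 20352 genes. Of the 73 genes, 68 passed the filter on low values. In H-10 vs. H-25, 12 were called (8 higher and 4 lower at H-25), where 4.45% of all tested genes were called (1.54% higher and 2.91% lower). In H-25 vs. H-40, 31 were called (18 higher and 13 lower at H-40), where 24.1% of all were (11.9% higher and 12.2% lower). In H-40 vs. H-60, 23 were called (16 higher and 7 lower at H-60), where 5.31% of all were (3.02% higher and 2.28% lower). The H-25 libraries enter the first pair of comparisons and the H-40 libraries the last pair. Since the on and off values chose these genes, nothing is read from these counts. The count in H-10 vs. H-25 fell to 7 when H-10 replicate 2 was left out, to 6 when H-25 replicate 1 was and to 5 when H-25 replicate 3 was, and that in H-40 vs. H-60 was 12 without H-60 replicate 1 and 11 without H-60 replicate 2.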

How the data were processed

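The authors sequenced strand-specific Illumina libraries and deposited a table of FPKM for 35166 genes in 12 libraries, with 4 columns of stage means that were not used. HISAT2, StringTie, featureCounts and DESeq2 stand in the submitters' processing notes, with no roles or options. All coordinates refer to Aspof.V1, where start and end of the 32237 genes with a RefSeq ID were identical to those of the table. FPKM times gene length gave whole multiples of 1 step per library (100% of values, tolerance 0.01), from which fragments were recovered. A median-of-ratios factor computed from the deposited FPKM was the same in every library, 1.02. The deposited values were thus already on a common scale of this kind, and not scaled by the total of fragments alone.

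The genes were selected on the deposited FPKM (off at most 0.1, on at least 2, highest at least 5). The members, gene lists and thresholds were chosen with earlier results of these data known. Genes with at least 1 FPKM in at least 3 libraries were fitted with limma 3.58.1 (R 4.3.3) on log2(FPKM + 1), with a pseudocount of 1, 1 mean per stage and all 12 libraries in 1 model, with Benjamini-Hochberg adjustment. The fit was tested on simulated data. The p-values set the difference of stage means against the spread of libraries within stages. This spread was pooled over the 4 stages and moderated across genes, and it may be technical in part. The deviations of same-numbered H-40 and H-60 libraries from their stage means correlated at 0.105 to 0.123 in the 3 pairs, which meets the criterion for pairing (every pair over 0.1), whereas the H-10 with H-25 and the H-25 with H-40 pairs did not. The model without a replicate term was kept for all comparisons. Floors use 3 fragments. Tables were handled with pandas 2.3.3 and numpy 2.4.6 in Python 3.11.15.

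Named genes were the 15 stage-following and the 15 stage-splitting genes with a description and the highest FPKM, the leading genes of sets of on libraries shared by at least 3, up to 2 members of each list, adjacent members and the genes beside each limit. Others were named after their values were seen. Close copies of the genes were not compared, as no sequences were used here.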

Additional observations from a re-analysis of the deposited data

How the results depend on the processing

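The number of on/off genes depended on the limits. It was 73 (24 following the stages, 49 splitting one) as reported, 139 (105 splitting) with on from 1 FPKM, 48 (15 following) with on from 3 FPKM and 49 (14 following) with a highest FPKM of at least 10. With FPKM rescaled to TPM it was 114 (85 splitting, 67 of the 73 genes kept), a rescaling that raises the values of a library by a common factor while the limits stay. With off limits of 0.05 and 0.2 FPKM it was 65 and 106, with off as 0 fragments 55, and with median-of-ratios factors 74. These factors were 1.02 in every library, so that setting changed nothing between libraries and is no check of the scaling. Further settings were chosen after seeing the data. With at most 1 library between the limits the numbers were 186, 47 following and 139 splitting, without H-10 replicate 1 and H-25 replicate 2 they were 85, 58 and 27, with at least 10 fragments in every on library 69 genes were left, and without overlapping genes 62. Leaving out each library in turn gave 73 to 97 genes, 24 to 36 that follow the stages and 38 to 73 that split one. It gave 325 to 2036 DEGs in H-10 vs. H-25, 3964 to 6143 in H-25 vs. H-40 and 498 to 1276 in H-40 vs. H-60, and 5 to 17, 25 to 36 and 11 to 26 of the 73 genes called, where a stage left with 2 libraries took the spread pooled over all stages. DEGs in H-10 vs. H-25 were 905 with all libraries, 335 without H-10 replicate 2, 393, 2036 and 325 without H-25 replicates 1, 2 and 3, and those in H-40 vs. H-60 were 1080 with all, 677 without H-40 replicate 3 and 618 and 498 without H-60 replicates 1 and 2. A pseudocount of 0.1, no filter, eBayes without trend and TPM kept each count of DEGs within 1.5 times. The causes of these changes were not tested.

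The replicate numbers do not mark a shared plant or day in the labels, and the deviations of same-numbered libraries correlated at -0.0926 to 0.331, over 0.1 in 10 of 18 pairs, and the best match was at the own number in 23 of 36 cases, where 12 would come from no tie between numbers. This leans towards shared variation by number, but at least 1 pair stayed below 0.1 in each comparison that involves the H-25 libraries. The block changed no count of calls by more than 1.5 times. With a replicate block, 1043, 4984 and 1161 DEGs were called in the 3 comparisons, and 13, 32 and 25 of the 73 genes.

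At this depth, a gene of 1 kb at 0 is compatible with up to 3 fragments, and the lowest on value of the tRNA-Phe gene lay below that floor.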
